A study of Mus musculus with 2 samples.

Results

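The genes described here encode the enzymes and carriers that take glucose to pyruvate (glycolysis), exchange pyruvate with lactate, bring pyruvate into the mitochondrion and burn it in the tricarboxylic acid (TCA) cycle. They were chosen by gene symbol, and 37 of 55536 annotated genes carry those symbols: 17 genes of glycolysis, 4 of lactate, 5 of pyruvate entry and 11 of the TCA cycle. The tables list 38 rows with these symbols, because Aldoa has a second, overlapping gene model with 16 and 11 counts in replicates 1 and 2, which was left aside. The tissue was left cerebral cortex from 2 males of the F1 hybrid strain B6CASTF1/J (B6 crossed with CAST), 36 days old, and total RNA was measured. The labels name no treatment. From each mouse, 300 ng of RNA went into 1 stranded library depleted of ribosomal RNA, to which ERCC spike-ins (synthetic transcripts) were added. The labels carry an identical donor identifier for both animals. The libraries form 1 group, so there is no comparison between conditions. No p-value was computed, since an exact permutation of 2 mice could not reach below 0.5. Tissue RNA cannot tell fewer cells of a type from less RNA per cell.

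Glycolysis splits glucose into 2 molecules of pyruvate in the cytosol and yields ATP and NADH. Lactate dehydrogenase turns pyruvate into lactate and back, monocarboxylate transporters carry both across membranes, and the pyruvate dehydrogenase complex feeds pyruvate carbon into the TCA cycle as acetyl-CoA. The brain runs mainly on glucose, and several steps have isozymes, separate genes for the same reaction, that differ between cell types and between fetal and adult tissue. At other steps a single gene makes different enzymes by splicing, as pyruvate kinase does.

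One gene of the set that splits its RNA between coding exons is Pkm, pyruvate kinase of muscle and brain (ENSMUSG00000032294.17, chromosome 9, 59656368 to 59679375, plus strand, mm10). Its transcripts carry either of 2 mutually exclusive coding exons of 167 bases. The upstream one makes the constantly active M1 enzyme, and the downstream one makes the M2 enzyme, whose activity is regulated by metabolites and by protein partners. The exons, read from GENCODE M21 transcripts, are shown because the split between them is the result that follows. They are identical at 103 positions (61.7%) and differ at the 64 positions set in capitals.
Pkm M1 exon, chr9:59675029-59675195, plus strand: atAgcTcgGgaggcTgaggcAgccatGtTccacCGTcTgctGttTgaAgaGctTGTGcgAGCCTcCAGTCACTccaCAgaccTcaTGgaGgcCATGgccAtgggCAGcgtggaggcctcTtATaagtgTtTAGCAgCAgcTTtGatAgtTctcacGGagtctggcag
Pkm M2 exon, chr9:59675568-59675734, plus strand: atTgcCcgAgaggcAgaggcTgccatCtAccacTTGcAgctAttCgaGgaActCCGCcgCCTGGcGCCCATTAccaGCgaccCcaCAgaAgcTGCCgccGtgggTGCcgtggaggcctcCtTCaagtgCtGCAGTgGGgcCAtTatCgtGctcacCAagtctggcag

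Hexokinase 1 and oxoglutarate dehydrogenase also split their RNA between alternative coding exons. Hk1 (ENSMUSG00000037012.18, chromosome 10, 62268855 to 62379908, minus strand) has alternative leading exons, each with its own start codon, which is in capitals below. The protein therefore begins differently in each transcript. Hk1-201 uses 2 leading coding exons before the first shared one, where Hk1-202 and Hk1-205 use 1, and it holds a further internal coding exon of 69 bases that the others lack.
Hk1-202 leading coding exon, chr10:62340013-62340075, minus strand: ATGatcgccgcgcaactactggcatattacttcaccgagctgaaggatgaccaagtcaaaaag
Hk1-201 leading coding exon, chr10:62358336-62358362, minus strand: ATGggacagaactgccagcgaggacag
Hk1-201 next coding exon, chr10:62353058-62353105, minus strand: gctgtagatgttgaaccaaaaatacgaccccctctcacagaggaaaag
Hk1-205 leading coding exon, chr10:62342501-62342560, minus strand: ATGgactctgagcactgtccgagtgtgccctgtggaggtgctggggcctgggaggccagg

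In Ogdh (ENSMUSG00000020456.17, chromosome 11, 6291633 to 6356642, plus strand), an exon of 91 bases and an exon of 103 bases lie side by side, and no annotated transcript holds both. The transcript Ogdh-203 has the 91-base exon and a further exon of 45 bases. They are shown because, as in Pkm, they decide which protein the gene's RNA encodes.
Ogdh-203 exon, chr11:6316765-6316855, plus strand: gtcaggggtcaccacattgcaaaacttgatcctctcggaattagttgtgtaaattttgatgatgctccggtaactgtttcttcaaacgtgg
Ogdh-201 exon, chr11:6316978-6317080, plus strand: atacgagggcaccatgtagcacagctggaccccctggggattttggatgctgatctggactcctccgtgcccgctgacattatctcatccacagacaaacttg
Ogdh-203 further exon, chr11:6324878-6324922, plus strand: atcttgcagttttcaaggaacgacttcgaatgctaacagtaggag

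The M1 and M2 forms of Pkm were present at nearly equal levels in the cortex of both mice. Pkm-202, the transcript with the M1 exon, held 49.2% and 48.9% of the gene's TPM (a transcript level corrected for length and scaled to a fixed sum in each library) in replicates 1 and 2 in the percentages deposited with the alignment-based table. Pkm-201, the transcript with the M2 exon, held 47.9% and 47.4%. Of the protein-coding TPM holding either exon, the M1 exon had 45.5% ± 0.158 in the read-based table, which was quantified from the reads without an alignment, and 50.7% ± 0.0794 in the alignment-based table (SD, n = 2 each). M2 was thus the more abundant form in the first of these tables, and M1 by a small margin in the other. The deposited bounds on the TPM of Pkm-202 (251 to 268 in replicate 1, 244 to 260 in replicate 2) overlapped those of Pkm-201 (246 to 260 and 238 to 252). These bounds belong to the posterior mean estimate, per the file headers, by which the M1 share was also 50.7%. By expected counts, which are not divided by transcript length, the M1 share was 46.1% ± 0.0791 (SD, n = 2).

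The 2 transcripts also differ at their ends, so the split does not rest on the alternative exons alone. The first exon has 77 bases in Pkm-202 and 282 in Pkm-201, and the last exon has 462 and 648, which leaves 391 end bases that only Pkm-201 holds. How much of the split these bases carry was not tested. The read-based table also placed 8.27% and 10.01% of Pkm TPM on Pkm-206, a transcript with 155 codons, where the alignment-based table had 0.34% and 0.54%. Pkm-209 and Pkm-203 held at most 1.13% in either table. Pklr, the separate pyruvate kinase gene of liver and red cells, had 0 counts in both libraries, which allows up to 3 counts in each.

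**Figure D1:**
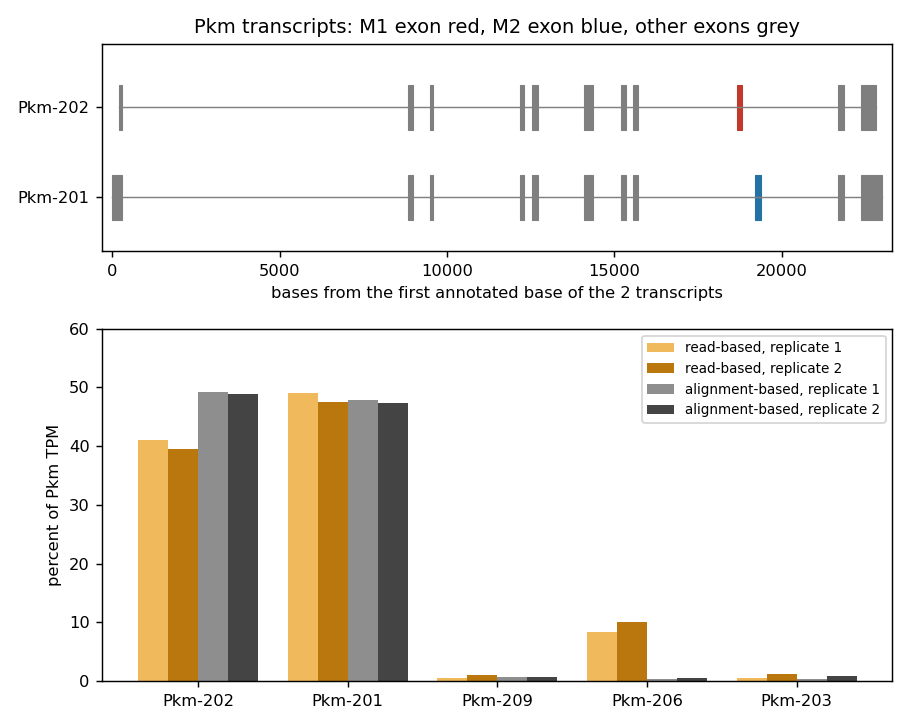
Upper panel: exons of the 2 main Pkm transcripts drawn to scale, in bases from the first annotated base, with the M1 exon in red and the M2 exon in blue. Lower panel: percent of Pkm TPM on each transcript, for each mouse and each table. In replicate 1 Pkm-202 held 41.1% in the read-based and 49.2% in the alignment-based table, and Pkm-201 held 49.0% and 47.9%.

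All 37 genes were expressed in both mice, and as a group they were abundant. Each stood at 1 TPM or more in both libraries, as did 58.6% of all protein-coding genes. The median over the 37 genes was 109 TPM in replicate 1 and 108 in replicate 2, against 15.5 and 16.4 over the 12902 detected protein-coding genes. On the log2(TPM + 1) scale the members' median was 6.77 ± 0.00663 (SD, n = 2), against 4.08 ± 0.0517 for detected genes. The members summed to 1.68% and 1.597% of the TPM of nuclear protein-coding genes in replicates 1 and 2. Of the 37 genes, 15 ranked among the 500 most abundant of the 12902 detected genes, and 19 were at or above 100 TPM in both mice. The share of all detected genes at or above 100 TPM was not computed. Glycolysis was the most abundant stage, with a median of 217 and 190 TPM over its 17 genes in replicates 1 and 2. The medians were 99.1 and 91.4 for lactate, 74.9 and 72.3 for pyruvate entry and 84.1 and 90.7 for the TCA cycle.

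**Figure D2:**
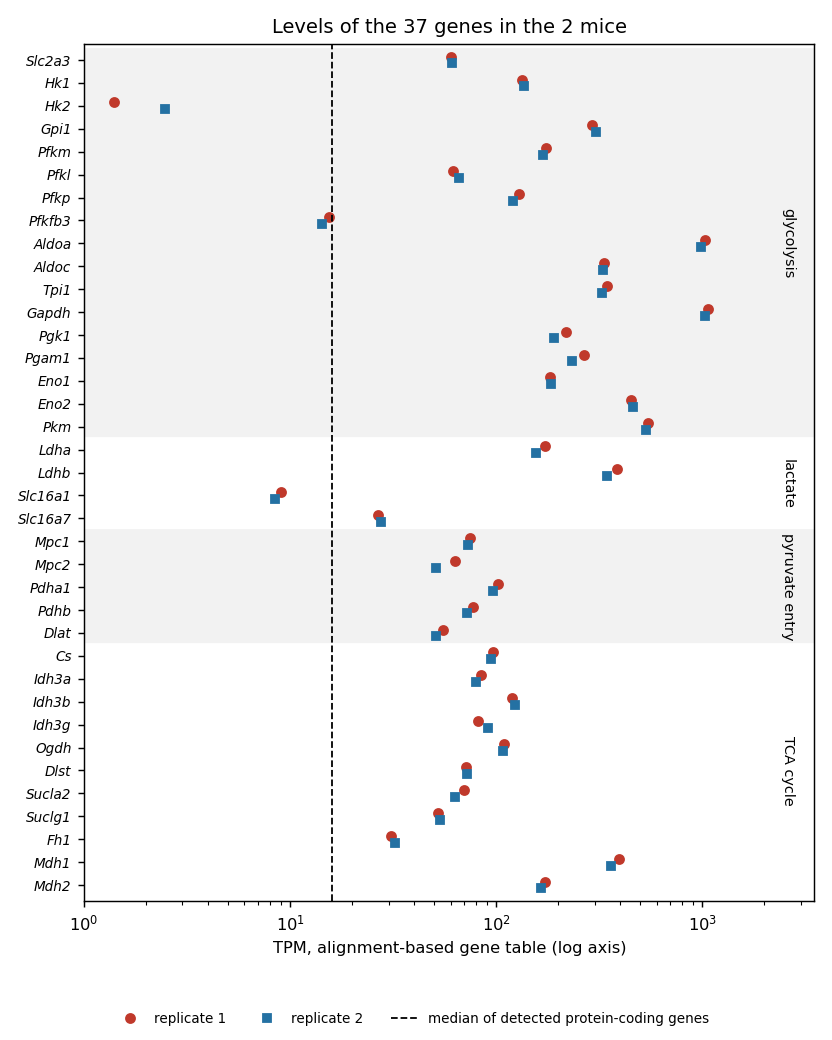
TPM of each gene in the alignment-based gene table on a log axis, with red circles for replicate 1 and blue squares for replicate 2, in pathway order from top to bottom. The dashed line is the median of detected protein-coding genes. Gapdh (1063 and 1032 TPM) and Aldoa (1027 and 987) lie highest, Hk2 (1.39 and 2.48) lies lowest, and the replicates of most genes nearly coincide.

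Glucose enters neurons through GLUT3, the product of Slc2a3, which stood at 60.2 and 61.0 TPM in replicates 1 and 2. Slc2a1, the glucose transporter of the blood-brain barrier and glia, was at 65.9 and 55.4 TPM. Hexokinase, which traps glucose by phosphorylation, came almost wholly from Hk1, the brain's main hexokinase, at 134 and 137 TPM. Hk2, the insulin-responsive hexokinase of muscle and fat, had only 1.39 and 2.48 TPM. Hk1 exceeded Hk2 by 5.56 ± 0.360 on the log2(TPM + 1) scale (SD, n = 2), or 47.3-fold in TPM + 1, which is less than the fold in TPM itself. This was far beyond the spread between mice, taken here as the difference between mice that 95% of genes of similar level stay under, which was 0.64 for the lower of the pair. Hk1 made up 94.4% and 94.1% of hexokinase TPM, Hkdc1 4.06% and 2.99%, and Hk2 0.980% and 1.71%. Hk3, the hexokinase of white blood cells, was under 1 TPM in both mice. The Hk2 count was the same within 3 counts (133 and 136), and the gap in its TPM came from a few reads on short transcripts. In replicate 2, 4 counts on Hk2-203 and 6 on Hk2-202 took 23.1% and 26.0% of the gene's TPM.

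Within Hk1, the read-based table gave 28.2% and 26.3% of the gene's TPM in replicates 1 and 2 to Hk1-202 (918 codons), 31.2% and 32.7% to Hk1-201 (945 codons) and 37.3% and 35.8% to Hk1-205 (917 codons). In the alignment-based table Hk1-202 led with 57.6% and 50.5%, Hk1-201 had 26.3% and 34.0%, and Hk1-205 had 14.1% and 13.1%. Which start of the Hk1 protein prevails therefore differed between the tables. In both tables Hk1-201 took a larger share in replicate 2.

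Phosphofructokinase, the main control point of glycolysis, is built from 3 subunits named for muscle, liver and platelet. Pfkm, the muscle subunit, was highest at 173 and 168 TPM in replicates 1 and 2, or 47.6% and 47.5% of phosphofructokinase TPM. Pfkp, the platelet subunit, held 35.4% and 33.9%, and Pfkl, the liver subunit, held 17.0% and 18.6%. Pfkm exceeded Pfkl by 1.40 ± 0.0941 on the log2(TPM + 1) scale (SD, n = 2), and Pfkl lay 0.95 ± 0.133 below Pfkp, both beyond the spread between mice. Pfkm over Pfkp was 0.45 ± 0.0386, past a spread of 0.27, but it no longer passed when the spread was set at the 99th percentile of genes. Pfkfb3, which makes the activator fructose 2,6-bisphosphate, had 15.4 and 14.3 TPM, near the medians of 15.5 and 16.4 over detected protein-coding genes. Gpi1, which makes fructose 6-phosphate, stood at 291 and 304 TPM.

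From aldolase to enolase the genes were among the most abundant of the tissue. Aldoa, the aldolase of muscle and most tissues (chromosome 7), had 1027 and 987 TPM in replicates 1 and 2, and Aldoc, the aldolase of brain (chromosome 11), had 333 and 329. Aldoa exceeded Aldoc by 1.601 ± 0.0299 on the log2(TPM + 1) scale (SD, n = 2), a ratio of 3.03. The isomerase Tpi1 had 347 and 325 TPM, the kinase Pgk1 217 and 190, and the mutase Pgam1 265 and 234. The testis forms Gapdhs and Pgk2 had 0 counts in both mice, which allows up to 3 counts in each, and Pgam2, the muscle mutase, had 2.19 and 2.64 TPM.

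By TPM summed over all transcripts of each gene, and without the copies of Eno1, enolase was led by the form named for neurons. Eno1, the enolase of most tissues, had 182 and 184 TPM in replicates 1 and 2, and Eno2, the neuron-specific enolase, had 451 and 460. Eno1 lay 1.31 ± 0.0129 below Eno2 on the log2(TPM + 1) scale (SD, n = 2), so Eno2 was 2.48-fold higher. Eno1 shares its sequence with expressed copies described further on. With the TPM of those copies added to Eno1, the ratio shrank to -0.21 ± 0.0102 (SD, n = 2). This lay at the edge of the spread of 0.22 between mice, just inside it in replicate 1 and just outside it in replicate 2. In the read-based table the sum lay 0.61 and 0.60 below Eno2. Transcripts with a complete coding region, defined further on, held 63.0% and 58.9% of Eno2 TPM in the alignment-based table, in replicates 1 and 2. For Eno1 they held 90.2% and 87.1%. In the read-based table the shares were 50.8% and 48.9% for Eno2, against 95.1% and 93.7% for Eno1. Which enolase leads on complete transcripts alone was not computed. The enolase of muscle, Eno3, had 3.49 and 4.23 TPM, and Eno4, an enolase of sperm, was under 1 in both.

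Lactate dehydrogenase is a tetramer of an A subunit, named for muscle, and a B subunit, named for heart. Ldha had 172 and 155 TPM in replicates 1 and 2, against 384 and 346 for Ldhb, and the ratio was -1.15 ± 0.0037 on the log2(TPM + 1) scale (SD, n = 2). Ldhb made up 76.9% and 78.7% of lactate dehydrogenase TPM in the read-based table, and 69.1% and 69.0% in the alignment-based table. These shares include short transcripts. Transcripts with a complete coding region held 38.0% and 36.1% of Ldhb TPM in the read-based table, against 86.8% and 91.8% for Ldha. In the alignment-based table they held 78.0% and 84.15% for Ldhb, against 97.9% and 96.6% for Ldha. The Ldhb share on complete transcripts alone was not computed. The testis subunit Ldhc had 0 and 1 counts. Slc16a1 encodes MCT1, the lactate carrier of vessels and glia, and had 9.02 and 8.46 TPM. Slc16a7 encodes MCT2, the carrier of neurons, and had 26.6 and 27.5 TPM, 2.88-fold more when compared as TPM + 1. Bsg, the chaperone that brings MCT1 to the membrane, had 247 and 262 TPM.

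Pyruvate entry ran through genes of similar level. The carrier subunits Mpc1 and Mpc2 had 74.9 and 73.2 TPM and 63.0 and 50.8 TPM in replicates 1 and 2, and their ratio did not pass the spread between mice in replicate 1. The pyruvate dehydrogenase subunits Pdha1, Pdhb and Dlat averaged 99.01 ± 3.64, 74.5 ± 3.12 and 53.2 ± 2.80 TPM (SD, n = 2). The steps of this order were 0.41 for Pdha1 over Pdhb and 0.48 for Pdhb over Dlat on the log2(TPM + 1) scale. In the read-based table the same ratios were 0.10 and 0.08, within the spread between mice, whereas in the alignment-based table both passed their spread of 0.31. The testis subunit Pdha2 had 0 counts in both mice, with the same limit of 3 counts. Dld, the subunit shared with the oxoglutarate dehydrogenase complex, had 48.5 and 47.5 TPM.

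Most genes of the TCA cycle lay between Suclg1 and Mdh2 in level, with Fh1 below them and Mdh1 above. Cs, the citrate synthase that opens the cycle, had 96.2 and 94.4 TPM in replicates 1 and 2. The NAD-linked isocitrate dehydrogenase subunits Idh3a, Idh3b and Idh3g averaged 81.9 ± 3.04, 121 ± 2.72 and 86.3 ± 6.24 TPM (SD, n = 2). Idh3a and Idh3g differed by less than the spread between mice, with Idh3a higher in replicate 1 and lower in replicate 2. Ogdh had 109 and 108 TPM, against 71.5 and 72.0 for its partner Dlst, 1.502-fold lower when compared as TPM + 1. Of the succinate-CoA ligase subunits, Sucla2 had 69.9 and 63.2 TPM and Suclg1 52.2 and 53.2, and their ratio passed the spread in replicate 1 only. Fh1, fumarase, was the lowest of the 11 cycle genes in the set at 30.8 and 32.3 TPM. Mdh1, the cytosolic malate dehydrogenase of the malate-aspartate shuttle, had 396 and 360 TPM, against 173 and 165 for Mdh2, the mitochondrial form that belongs to the cycle. The log2 ratio of TPM + 1 for Mdh1 over Mdh2 was 0.72 in the read-based table and 1.16 ± 0.0489 in the alignment-based table (SD, n = 2).

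Over 17 such pairs of isozymes and partner subunits, 14 exceeded the spread between mice in both mice. The 3 that did not were Mpc1 over Mpc2, Idh3a over Idh3g and Sucla2 over Suclg1. The read-based table kept the direction of all 17, with 11 past its own spread. This yardstick is the variation of a gene between 2 mice, and it does not cover errors of comparing different genes. How often pairs of unrelated genes pass it was not tested, so the count of 14 is not shown to be particular to these pairs.

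**Figure D3:**
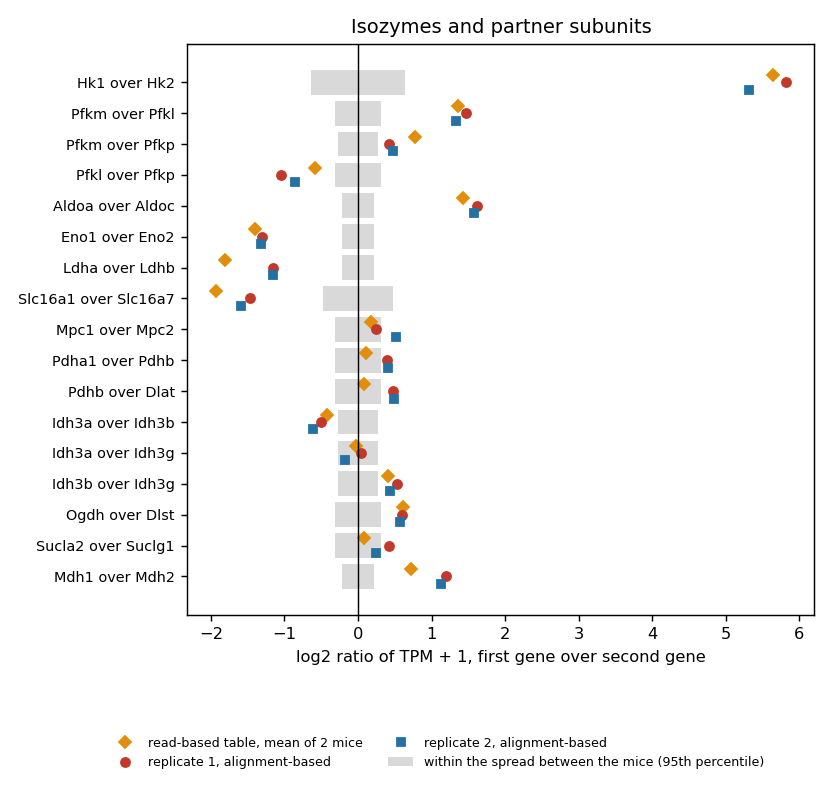
Log2 ratio of TPM + 1 between the genes of each pair, with an orange diamond for the read-based table (mean of 2 mice) and a red circle and a blue square for replicates 1 and 2 of the alignment-based table. The grey bar is the spread between the mice at that level. Hk1 over Hk2 lies far to the right at 5.56, Slc16a1 over Slc16a7 farthest to the left at -1.53, and the pyruvate dehydrogenase pairs leave the grey bar in the alignment-based table only.

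Ogdh was divided between its 2 alternative exons in nearly the same way in both tables. Of the TPM holding either exon, the 103-base exon had 59.8% ± 1.81 in the read-based table and 58.9% ± 0.279 in the alignment-based table (SD, n = 2 each). The further exon of 45 bases was present in 77.6% and 75.5% of the TPM with the 91-base exon in the alignment-based table, in replicates 1 and 2. Ogdh-201 (1023 codons) was the leading transcript at 45.7% and 43.4%, and Ogdh-203 (1034 codons) followed at 27.4% and 25.8%. In the read-based table much of Ogdh lay on the short Ogdh-207 (30.8% and 30.5%) and Ogdh-206 (14.03% and 15.7%), which hold neither exon.

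How much of each gene's RNA coded for the complete enzyme varied widely among members. Counting transcripts whose coding region reaches at least 90% of the annotated principal one, the median over the 37 genes was 71.0% of TPM in the read-based table and 84.8% in the alignment-based table, against 72.4% and 77.6% over detected protein-coding genes. Above 90% in the alignment-based table were 13 members, among them Pgam1 (99.7% ± 0.205), Pgk1 (99.4% ± 0.0830), Cs (98.9% ± 0.156) and Hk1 (97.8% ± 0.211; SD, n = 2 each). The share of all detected genes above 90% was not computed. A gene with 1 annotated transcript, such as Slc16a1, stands at 100% by construction. Gapdh and Gpi1 were under 50% in both tables. Dlst (33.9%), Dlat (36.2%), Ldhb (37.1%), Fh1 (39.1%) and Eno2 (49.8%) were under 50% in the read-based table only. Gpi1 put 10.6% and 11.5% of its TPM in replicates 1 and 2 on Gpi1-211, a transcript with a retained intron, in the read-based table, and 13.6% and 15.7% in the alignment-based table. Gpi1-207, annotated for nonsense-mediated decay, had 35.3% and 35.6% in the read-based table, against 8.41% and 16.2% in the alignment-based table, so the difference between mice was seen in the alignment-based table only. The tables also disagreed on malate dehydrogenase. Mdh2-203, annotated for nonsense-mediated decay, held 21.7% and 10.8% of Mdh2 in the read-based table and 41.5% and 29.7% in the alignment-based table, with the larger share in replicate 1 in both. Mdh1-202, with 155 codons, held 14.6% and 10.3% of Mdh1 in the read-based table and 39.8% and 36.8% in the alignment-based table. Eno2 had 60.9% ± 2.86 on complete coding transcripts in the alignment-based table (SD, n = 2). Eno2-210, which retains an intron, had 19.6% and 18.2% in the read-based table and 11.7% and 11.9% in the alignment-based table.

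**Figure D4:**
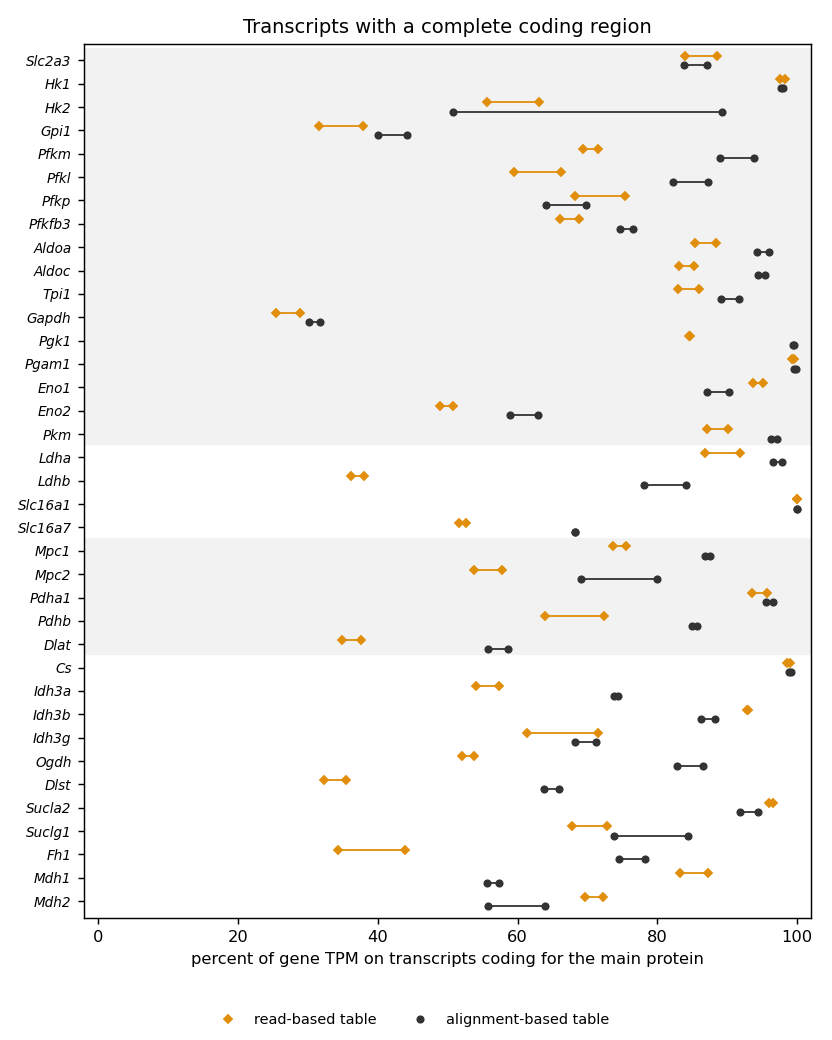
Percent of each gene's TPM on transcripts that code for the main protein, with orange diamonds for the read-based table and dark circles for the alignment-based table, 1 symbol per mouse joined by a line. Pgam1, Cs, Hk1 and Slc16a1 lie near 100% in both tables, Gapdh and Gpi1 lie lowest in the alignment-based table, and Ldhb differs most visibly between tables.

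The 2 tables named the same leading transcript for 31 of 37 genes, as they did for 78.3% of the 12862 detected protein-coding genes with read-based TPM above 0. Ldha was an exception: the read-based table put 50.8% and 50.5% on Ldha-201, whereas the alignment-based table had 0 there and put 97.5% and 96.1% on Ldha-202, and both encode 332 codons. For Ldhb, the short Ldhb-202 (31 codons) and Ldhb-203 (198 codons) held 34.6% and 26.4% in the read-based table in replicate 1, against 20.96% and 0.22% in the alignment-based table. Aldoa-202 (418 codons) held 41.4% and 30.1% in the read-based table and 0.16% and 0.39% in the alignment-based table. A pair of transcripts of Idh3a that code for similar lengths traded shares between the mice: Idh3a-201 (366 codons) held 0.30% in replicate 1 and 19.6% in replicate 2, and Idh3a-205 (384 codons) held 74.0% and 54.2%. By posterior means Idh3a-201 had 8.44% and 23.2%, and the deposited bounds on its TPM (0.142 to 14.2 in replicate 1, 5.74 to 29.2 in replicate 2) overlapped. The read-based table listed Idh3a-201 at 0 in both mice, so the shift was uncertain and was seen in the alignment-based table only.

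Gapdh, the glyceraldehyde-3-phosphate dehydrogenase often used as a loading control, was the gene whose level depended most on the table. It had 3464 and 3541 TPM in the read-based table in replicates 1 and 2, against 1063 and 1032 in the alignment-based table. After removal of the median difference of all detected genes (0.58), the read-based level was 1.17 higher on the log2(TPM + 1) scale. It was the only member past 1 in this direction, as were 0.674% of detected protein-coding genes, and no member was past 1 the other way, against 0.682% of genes. The estimated counts were 23742 and 21465 in the read-based table and 13544 and 12075 in the alignment-based table. The alignment-based table put 67.1% and 68.2% of Gapdh TPM on Gapdh-208, a non-coding transcript of 483 bases, and 31.0% and 29.8% on the complete Gapdh-201. The read-based table had 0 on both and spread the gene over Gapdh-203 (28.8% and 25.4%), Gapdh-207 (38.0% and 39.7%) and Gapdh-209 (27.8% and 27.6%). By posterior means, also deposited, Gapdh-201 had 18.0% and 16.7%. The remaining members moved between -0.34 (Mdh1) and 0.81 (Fh1), with a median of 0.12 over all 37.

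Some of these genes have near-identical copies, most of them processed pseudogenes, which are reverse-transcribed copies of the messenger RNA without introns. An alignment of each member's leading coding transcript to all annotated transcripts found copies, at 90% identity or more over at least 200 bases and at least 50% of the copy, for 15 of the 37 genes. Other genes were not searched in this way, so it is not known whether 15 of 37 is a high share. There were 221 such copies, 212 of them pseudogenes, and 175 belonged to Gapdh. Only 21 copies had a mean TPM of at least 1. The most abundant was Eno1b, a protein-coding copy of Eno1 on chromosome 18 with 99.5% identity, at 132 and 139 TPM in replicates 1 and 2. Gm4735, a pseudogene of Eno1 on chromosome 2, had 76.3 and 72.4 TPM. Together the copies of Eno1 took 35.3% and 35.2% of the counts on Eno1 and its copies in the read-based table, and 48.0% and 48.4% in the alignment-based table.

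The copies of Gapdh took 29.04% and 30.2% of the shared counts in the read-based table, in replicates 1 and 2, and 9.10% and 12.3% in the alignment-based table. Most of the read-based share lay on Gm7336, a pseudogene on chromosome 7 with 99.8% identity, at 633 and 627 TPM, against 7.80 and 11.9 TPM in the alignment-based table. Counts on Gapdh and its copies together were 33459 and 30752 in the read-based table and 14899 and 13765 in the alignment-based table, so the gap between tables was not closed by adding the copies. Gm10359 and Gm12070 were further Gapdh copies, with 11.3 and 17.7 TPM and 7.16 and 11.6 TPM. Mpc1-ps was listed at 0 in the read-based table and had 38.4 and 35.1 TPM in the alignment-based table, or 12.9% and 12.04% of the counts on Mpc1 and its copies. Pgam1-ps2 (19.5 and 16.3 TPM) and Gm5537, a copy of Pgk1 (16.4 and 18.9 TPM), are identical to their source over the aligned bases, and the read-based table gave both 0 counts. Gm1840, a copy of Gpi1, had 17.2 and 19.9 TPM, and Gm5514, a copy of Ldhb, had 8.92 and 7.37. Levels of Eno1, Gapdh and Mpc1 are therefore uncertain, since reads shared with copies can be assigned to either.

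The mice differed little in these genes, and nearly all of the differences pointed one way. Log2 ratios of replicate 1 over replicate 2, from TMM-scaled counts, ran from -0.08 (Idh3g) to 0.26 (Pfkfb3), with a median of 0.11 against 0.03 over the 11728 protein-coding genes that averaged 100 counts or more. Of the 37 genes, 34 were higher in replicate 1, as were 57% of all these genes. Among genes averaging 1000 counts or more, 31 of 33 members and 67.9% of all genes were higher, with medians of 0.11 and 0.05. The exceptions were Idh3g, Hk2 and Gpi1. The stages did not stand apart, with median ratios of 0.09 for glycolysis, 0.15 for lactate, 0.12 for pyruvate entry and 0.11 for the TCA cycle.

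Past a log2 ratio of 0.25, 2 members were higher in replicate 1, as were 6.39% of all genes, and none was higher in replicate 2, against 7.76% of all genes. These were Pfkfb3, with 1062 and 866 counts in replicates 1 and 2 (0.26, exact binomial 95% interval 0.13 to 0.39), and Pgk1, with 7358 and 6015 counts (0.26, 0.21 to 0.31). Pgam1 (0.24), Sucla2 (0.23) and Ldha (0.22) lay just inside. No member passed 1, and 29 of the 11728 genes did. The intervals cover counting error only, and 1 library a mouse gives no replicate check. The position of 0 rests on the scaling: with spike-in totals, which were 121668 and 90089 counts, the members' median ratio was -0.29 and that of all genes -0.37. A scaling moves all genes alike, so it leaves the members' place among all genes as it was: 34 of 37 lay above the median of all genes, and their own median lay 0.09 above it.

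Markers of some cell types also differed between the mice. The 4 oligodendrocyte markers were all higher in replicate 1, with log2 ratios of 0.32 for Mbp, 0.33 for Mobp and 0.44 for Mog among them, and their summed level was 1230 and 1023 TPM in replicates 1 and 2. The 5 astrocyte markers summed to 1160 and 1094 TPM with ratios from -0.12 (Gfap) to 0.18 (Slc1a2), and the 4 excitatory neuron markers to 1755 and 1723. The sums were 462 and 485 TPM for 5 inhibitory neuron markers, 87.2 and 86.2 for 4 microglial markers, 64.8 and 74.9 for 4 endothelial markers and 376 and 378 for 3 red blood cell markers. Their part in the members' ratios was not tested. The 3 testis markers had 0 counts in both mice, and the 3 cerebellum markers summed to 0.20 and 0.15 TPM. The 3 liver markers summed to 8.71 and 5.73 TPM and the 4 skeletal muscle markers to 4.79 and 4.51 TPM, with 1 gene detected in each list. The markers of neurons and glia were all detected.

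**Figure D5:**
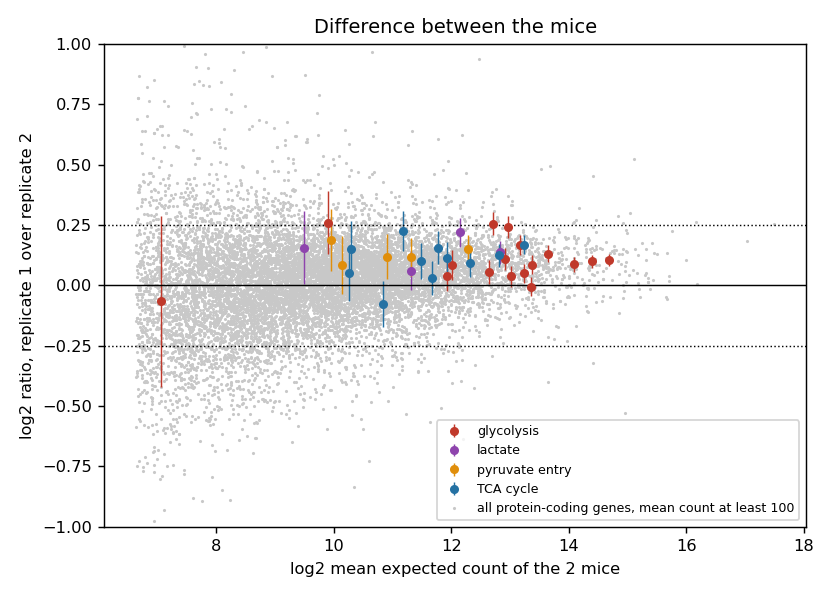
Log2 ratio of replicate 1 over replicate 2 against the log2 mean expected count, with the 37 genes coloured by stage and all protein-coding genes averaging 100 counts or more in grey. Bars are exact binomial 95% intervals (counting error only), dotted lines mark 0.25 in either direction, and 29 genes beyond 1 may lie outside the axis. The 37 genes sit in a narrow band, 34 of them above 0.

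Among 51 other genes of these pathways, 35 were detected in both mice. Among the most abundant were Sdha at 142 and 127 TPM in replicates 1 and 2, Sdhc at 79.7 and 90.3, Sdhb at 76.6 and 75.5 and Sdhd at 48.0 and 46.2, the subunits of succinate dehydrogenase. Pdp1, the phosphatase that switches pyruvate dehydrogenase on, had 101 and 79.5 TPM, and Acly, which makes cytosolic acetyl-CoA from citrate, had 55.0 and 54.1. Of the 32 that averaged 100 counts or more, 5 passed a log2 ratio of 0.25 upward in replicate 1, against 6.39% of all genes, and 1 passed it downward, against 7.76%. The upward ones included Pdk4 (0.65), a kinase that switches pyruvate dehydrogenase off, named after its value was seen, as well as Pdp1 (0.39) and Slc2a1 (0.35). Their median ratio was 0.06. Mdh1b, a further malate dehydrogenase, was at 0.53 and 0.47 TPM.

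Some of the members lie on the same chromosome, and a few are neighbours. On chromosome 6 lie 7 of the 37 genes (18.9%), against 5.05% of protein-coding genes: Slc2a3, Eno2, Tpi1, Gapdh, Ldhb, Hk2 and Suclg1. Eno2 (124760053 to 124769673), Tpi1 (124810586 to 124814296) and Gapdh (125161715 to 125166467), which act between triose phosphate and phosphoenolpyruvate, are near neighbours. Eno2 and Tpi1 are 40.9 kb apart, and Tpi1 and Gapdh 347 kb. In this stretch lay some of the most abundant members, with 451 and 460, 347 and 325, and 1063 and 1032 TPM in replicates 1 and 2. Pgk1, Pdha1 and Idh3g lie on the X chromosome. The genes spanned a median of 19.8 kb, against 26.0 kb for detected protein-coding genes, from 3.71 kb (Tpi1) to 170 kb (Slc16a7), and had a median of 7 annotated transcripts against 5.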

How the data were processed

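Per the file headers and the deposited listing, each library has a gene and a transcript table quantified from a transcriptome alignment, and a transcript table quantified from the reads, both on mm10 with GENCODE M21. The sources used here do not name the aligner or quantifier. The deposited expected counts (estimated reads) are not normalized, deposited TPM is scaled to a fixed sum over all rows, and the deposited percent values are shares of a gene's TPM. Read-based TPM was summed per gene. The members, lists and tests were chosen with earlier results of these data known. All 37 genes are named, with some of the transcripts that hold at least 10% of a gene in either table (Pkm at least 1%), picked after their values were seen, the 10 most abundant of the other pathway genes and of the copies, and the listed isozymes, apart from a few of these other genes and markers that are not reported here.

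Expected counts, rounded where an interval needed it, were scaled by TMM (edgeR 4.0.16, R 4.3.3) with a prior count of 0.5. No count test can be run on 1 group of 2. Levels are log2(TPM + 1), and the spread between mice is a 95th percentile in 20 bins of level. Copies came from blastn 2.17.0. Python 3.11.15, with scipy 1.17.1, numpy 2.4.6, matplotlib 3.10.9 and pandas 2.3.3, served for the other steps. The ratio step was tested on simulated data. Depth was 29915463 and 27988085 expected counts in replicates 1 and 2. Alternatives were other TPM thresholds, pseudocounts, scalings (spike-in totals, library totals, size factors of DESeq2 1.42.0), count minimums, the read-based table and leaving out each mouse.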

Additional observations from a re-analysis of the deposited data

How the results depend on the processing

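Of 38 alternative values of the 7 summary results, 28 stayed within a set tolerance. This was the SD of the 2 mice for the level and the Pkm share, and 1.5 times the count reported for counts. For the median mouse ratio it was 0.0598, taken from the members' counting intervals, with the direction kept. Some of the 28 were fixed in advance. Leaving out a mouse cannot move the level or the Pkm share past that SD, nor lower the count of detected members or of pairs past the spread. With 17 pairs in all, the count of 14 pairs could not rise past its tolerance either. A TPM threshold of 0.1 and lower count minimums could not change their counts either. The members' median level of 6.77 on the log2(TPM + 1) scale was 7.91 after rescaling TPM to the nuclear protein-coding genes, 7.499 in the read-based table and 6.76 with a pseudocount of 0.1, and leaving out a mouse gave 6.77 to 6.78. The Pkm M1 share of 50.7% was 45.5% in the read-based table, 46.1% by expected counts and 51.0% over all transcripts holding either exon, and leaving out a mouse gave 50.7% to 50.8%. By posterior mean TPM, an alternative chosen after seeing the data, it was 50.7%. The median mouse ratio of 0.11 was 0.050 with library totals and turned to -0.29 with spike-in totals. The count of members past 0.25 between mice was 2, both higher in replicate 1, and 0 with library totals. With spike-in totals it was 25, all lower in replicate 1, as were 81.9% of all genes. There the ratios turned to -0.14 for Pfkfb3 and -0.14 for Pgk1. The causes were not tested, apart from the scaling itself, which moves all genes by the same amount. Pairs past the spread numbered 14, with 11 in the read-based table (without Pdha1 over Pdhb, Pdhb over Dlat and Idh3b over Idh3g), 10 at the 99th percentile (without Pfkm over Pfkp, Pdha1 over Pdhb, Pdhb over Dlat and Idh3b over Idh3g) and 15 without either mouse, and Idh3a over Idh3g ranged from -0.18 to 0.038 when leaving out a mouse. No paired analysis was possible because there is 1 group. The lowest member count was 133, for Hk2, whose mouse ratio had a counting interval from -0.42 to 0.29. Depth thus limits Hk2, and it limits the shares of transcripts that hold few counts.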
